A study of Mus musculus with 3 samples.

Results

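The Dlk1-Dio3 cluster is a run of miRNA hairpins on mouse chromosome 12 between the genes Dlk1 and Dio3. Its members were chosen by position: every annotated miRNA hairpin between the end of Dlk1 and the start of Dio3 (NCBIM37, chromosome 12, positions 110701547 to 111517277), on its annotated strand, whatever its depth. This gave 65 hairpins of the 1156 counted in the series, and Mir345 lies outside the interval. The libraries are small RNA of HL-1, a line of mouse heart muscle cells that beats in culture, taken 48 h after transfection with 9 µl of a 20 µM siRNA stock. By title, the siSrf1 library and the siSrf2 library are a pair of knockdowns of Srf, which encodes the muscle transcription factor SRF. The labels do not settle this: the siRNA entry reads Srf si2 for the siSrf1 library and siNon, the unspecific siRNA, for the siSrf2 library. The names siSrf1 and siSrf2 are used here as titles only, and which siRNA each library received cannot be told apart from these labels. There was 1 library per title, so no p-value was computed, intervals cover counting error only, and the library with the title siNon is not analysed here.

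The cluster is imprinted: its non-coding RNAs and miRNAs are transcribed from the maternal chromosome, while Dlk1, Rtl1 and Dio3 are expressed from the paternal one. The hairpins sit in long non-coding transcripts, with a group antisense to Rtl1 (anti-Rtl1), a few near Rian and the longest run in Mirg. A hairpin is cut into a pair of arms, 5p and 3p, and bases 2 to 8 of the mature arm, the seed, lead target pairing. miR-127 and its neighbours in anti-Rtl1 are known to act on the Rtl1 transcript, to which they are fully complementary.

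The arms on which the values below rest are shown first, from RefSeq (GRCm38.p6), 5′ to 3′ with the seed in capitals. They are the measured arms, meaning 50 or more reads in the sum of the libraries, that have a RefSeq mature entry.
miR-433-3p: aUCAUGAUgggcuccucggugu
miR-127-3p: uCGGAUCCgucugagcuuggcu
miR-411-5p: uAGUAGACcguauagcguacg
miR-323-3p: cACAUUACacggucgaccucu
miR-543-3p: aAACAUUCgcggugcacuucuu
miR-495-3p: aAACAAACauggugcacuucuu
miR-382-5p: gAAGUUGUucgugguggauucg
miR-382-3p: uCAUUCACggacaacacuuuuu
miR-485-3p: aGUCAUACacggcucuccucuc
miR-409-3p: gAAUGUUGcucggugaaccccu
miR-369-5p: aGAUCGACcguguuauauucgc
miR-369-3p: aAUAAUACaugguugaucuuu
These 12 arms carry 12 different seeds, so no pair of them shares bases 2 to 8. The measured arms miR-487b-3p and miR-485-5p are given by name.

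The siSrf1 library held 14911499 reads and the siSrf2 library held 14518157 reads, of which 4838096 and 4149679 matched an miRNA arm. A single miRNA, the muscle miRNA miR-1a-3p, took 66.3% of miRNA reads in the siSrf1 library and 55.4% in the siSrf2 library, so the share left to all others differed between the libraries. All 5 muscle markers were read, at 679078 RPM (reads per 1000000 miRNA reads) in the siSrf1 library and 570848 in the siSrf2 library, nearly all of it miR-1a-3p. Not all other muscle markers followed that sum. miR-133a-3p had 5402 reads in the siSrf1 library and 9783 in the siSrf2 library (log2 ratio -1.08, interval -1.13 to -1.03). Log2 ratios were -0.28 for miR-208b-3p and -0.01 for miR-499-5p. miR-208a-3p lay on the side of the sum, with 37 reads in the siSrf1 library and 23 in the siSrf2 library (0.45, -0.32 to 1.28). The endothelial markers miR-126a-3p and miR-126a-5p summed to 405 and 365 RPM, in the same order of libraries. Of the neuronal list 3 of 4 were read, with a sum of 284 in the siSrf1 library and 361 in the siSrf2 library, nearly all of it miR-128-3p. Of the blood list 5 of 6 were read (79.2 in the siSrf1 library and 89.4 in the siSrf2 library), and the epithelial and stem cell lists lay under 6 RPM in both.

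Some cluster miRNAs were read only in a form that differs from the mouse reference. miR-432 had no read of the reference form in either library, but 233 reads in the siSrf1 library and 168 in the siSrf2 library carried A12G and G16T together (reference base, position from 1 at the mature 5′ end, base read). These reads match the NCBIM37 genome nowhere. More reads carried them than any measured cluster arm but miR-127-3p held. The reference forms concerned are shown with the changed positions in capitals.
miR-432: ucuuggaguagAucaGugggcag
miR-376a-3p: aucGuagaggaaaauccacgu
miR-299a-3p: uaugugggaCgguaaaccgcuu
miR-376c-3p with T16C was read 31 times in the siSrf1 library and 24 times in the siSrf2 library. miR-376a-3p with G4A was read 21 and 19 times in the same order of libraries. miR-299a-3p with C10T had 8 reads in the siSrf1 library and 5 in the siSrf2 library, and miR-539-3p with T10C had 6 and 9. No reference-form read covered these positions in either library. For miR-376c-3p and miR-539-3p, positions were counted from the most frequent 5′ end of the reads. In each of these 5 arms the base read is the one known in the human miRNA, as background; no human sequence was searched. The 5 arms were picked after the reads had been scanned, because of that base.

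The same kind of change was looked up in 9 arms outside the cluster, picked in the same way. There the changed form made up 86.8% of reads in the siSrf1 library (exact Clopper-Pearson interval 85.7% to 87.9%) and 75.4% in the siSrf2 library (73.9% to 76.9%). The changed-form share was higher in the siSrf1 library in 8 of the 9 arms, and the intervals of the libraries lay apart in 5. For miR-151-3p with G10A, 1168 changed and 210 reference reads were found in the siSrf1 library, against 890 and 332 in the siSrf2 library. Scaled to miRNA reads, the changed reads of the 9 arms had a log2 ratio (siSrf1 minus siSrf2) of 0.16 (exact binomial interval 0.08 to 0.23), and their reference reads one of -0.94 (-1.11 to -0.78). Because the arms were selected for the change, these shares do not measure how much of a library is of either kind. If human reads were present, those of an miRNA with the same bases in mouse could not be told apart from mouse reads. Read counts, ratios, arm shares and 5′ ends below rest on exact matches to the mouse hairpins, and which of those have the same bases in human was not checked. The source of the changed reads was not tested.

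**Figure D1:**
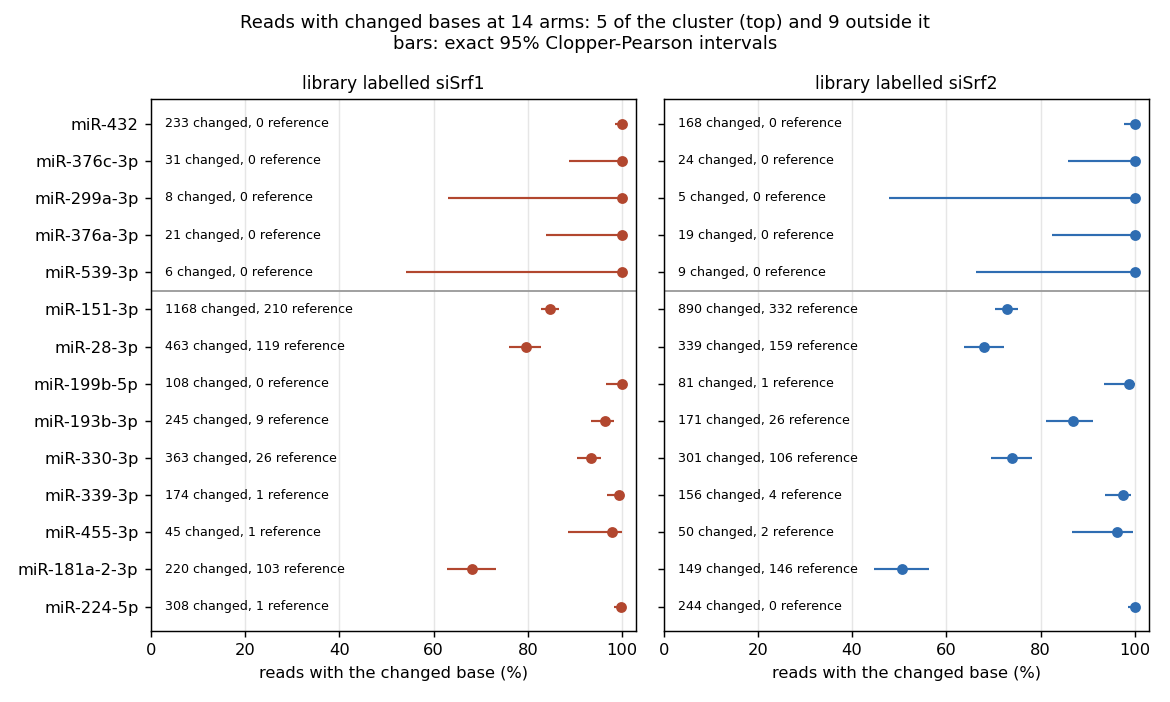
Percent of reads with the changed base (x axis) for 5 arms of the cluster (top) and 9 arms outside it, with the siSrf1 library on the left and the siSrf2 library on the right; bars are exact 95% Clopper-Pearson intervals and the printed numbers are reads. All reads of the 5 cluster arms carry the change, and miR-181a-2-3p has the lowest share, 68.1% in the siSrf1 library and 50.5% in the siSrf2 library.

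Of the 65 hairpins, 30 had at least 1 exact read and 35 had none; a count of 0 allows up to 3 reads (a one-sided 95% limit, for counting error only), or 0.62 RPM in the siSrf1 library and 0.72 in the siSrf2 library. The anti-Rtl1 group, with 7 hairpins of which 4 were read, held 748 reads in the siSrf1 library and 521 in the siSrf2 library. In this group Mir434, which lies next to Mir127, had no exact read in either library. Neither had Mir3071 nor Mir432, whose reads were all of the changed form. The Mirg group, with 42 hairpins of which 21 were read, held 962 and 735 reads in the same order. Together these groups took nearly all cluster reads. The 10 hairpins between Meg3 and Rtl1 gave 4 reads in the siSrf1 library and 12 in the siSrf2 library, mostly of Mir493. The 5 hairpins near Rian gave 1 and 3 reads, and Mir1247 beside Dio3 gave 1 and 0. Of 7 hairpins on the minus strand, 1 was read. Only 3 of 180 distinct cluster inserts matched the genome at several places, with 3 reads in all.

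**Figure D2:**
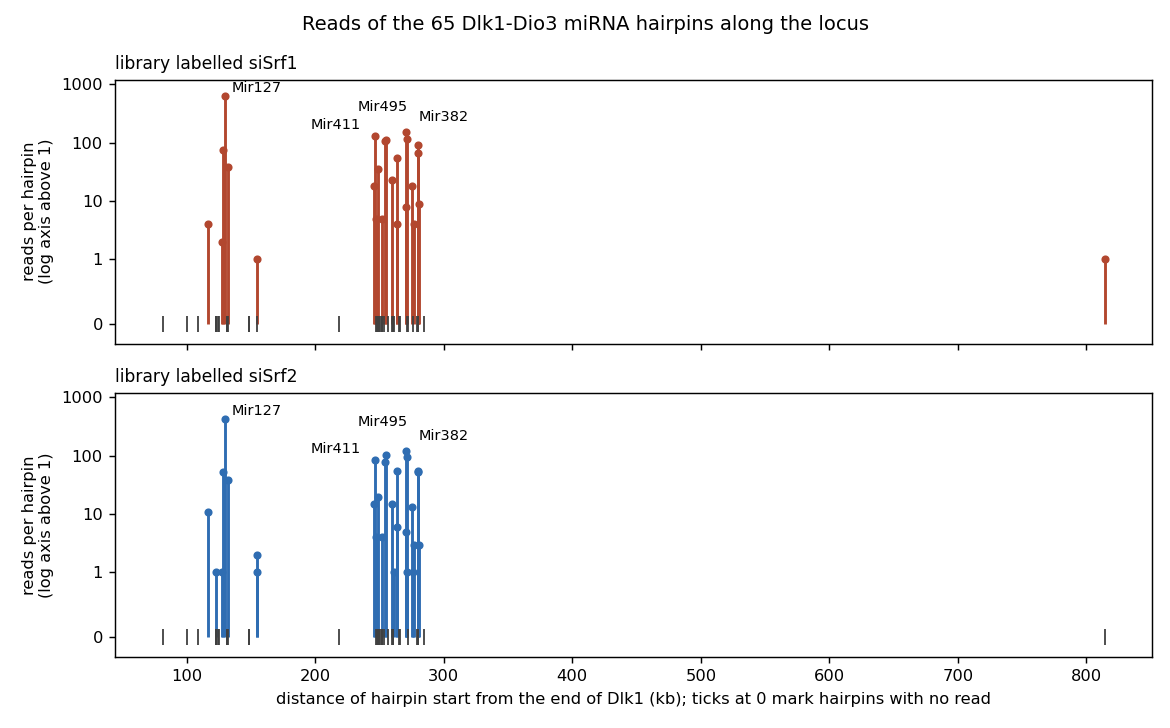
Reads per hairpin (y axis, logarithmic above 1) against the distance of the hairpin start from the end of Dlk1 in kb, with the siSrf1 library above the siSrf2 library; ticks at 0 mark hairpins with no read. Reads gather in the anti-Rtl1 and Mirg groups in both libraries, with Mir127 highest at 631 reads in the siSrf1 library and 429 in the siSrf2 library.

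All cluster hairpins together had 1716 reads in the siSrf1 library and 1271 in the siSrf2 library. This was 355 RPM (exact Poisson interval 338 to 372) in the siSrf1 library and 306 (290 to 324) in the siSrf2 library. The log2 ratio was 0.21 (exact binomial interval 0.11 to 0.32), a 1.16-fold difference. Scaled in place of that to the changed reads of the 9 outside arms, the log2 ratio was 0.055 (-0.05 to 0.16). Scaled to their reference reads it was 1.16 (1.05 to 1.26). Both scalings were chosen after the data were seen. These 2 intervals take the reads of the 9 arms as fixed totals and leave out their counting error, so they are too narrow. The reference reads numbered only 470 in the siSrf1 library and 776 in the siSrf2 library.

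miR-127-3p, the most read arm of the cluster, had 617 reads in the siSrf1 library and 416 in the siSrf2 library. This was 128 RPM (118 to 138) in the siSrf1 library, against 100.2 (90.8 to 110) in the siSrf2 library, and the counting intervals do not overlap. It made up 35.96% of cluster reads in the siSrf1 library and 32.73% in the siSrf2 library. Its log2 ratio was 0.35 (0.17 to 0.53). In the same anti-Rtl1 group, miR-433-3p had 76 reads in the siSrf1 library and 53 in the siSrf2 library. miR-136-5p had 15 and 22 reads and miR-136-3p 23 and 16, in the same order of libraries. Counting intervals of these 3 arms overlap between the libraries.

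In the Mirg group, miR-411-5p was read 126 times in the siSrf1 library and 83 times in the siSrf2 library. miR-495-3p was read 111 and 104 times in that order, and miR-543-3p 107 and 77 times. These 3 arms were the most read of Mirg in both libraries. miR-382-5p had 86 reads in the siSrf1 library and 67 in the siSrf2 library, and its partner arm miR-382-3p had 66 and 53. miR-485-5p had 81 reads in the siSrf1 library and 64 in the siSrf2 library, and miR-485-3p had 35 and 32. The remaining measured arms had between 19 and 55 reads per library. miR-487b-3p had 55 reads in each, and miR-409-3p had 55 in the siSrf1 library and 37 in the siSrf2 library. miR-369-5p had 37 reads in the siSrf1 library and 19 in the siSrf2 library, while miR-369-3p, from the same hairpin, had 30 and 34. miR-323-3p had 35 reads in the siSrf1 library and 20 in the siSrf2 library. Every one of these Mirg arms had overlapping counting intervals between the libraries. A further 11 arms had 10 to 49 reads summed, and 16 had fewer than 10.

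**Figure D3:**
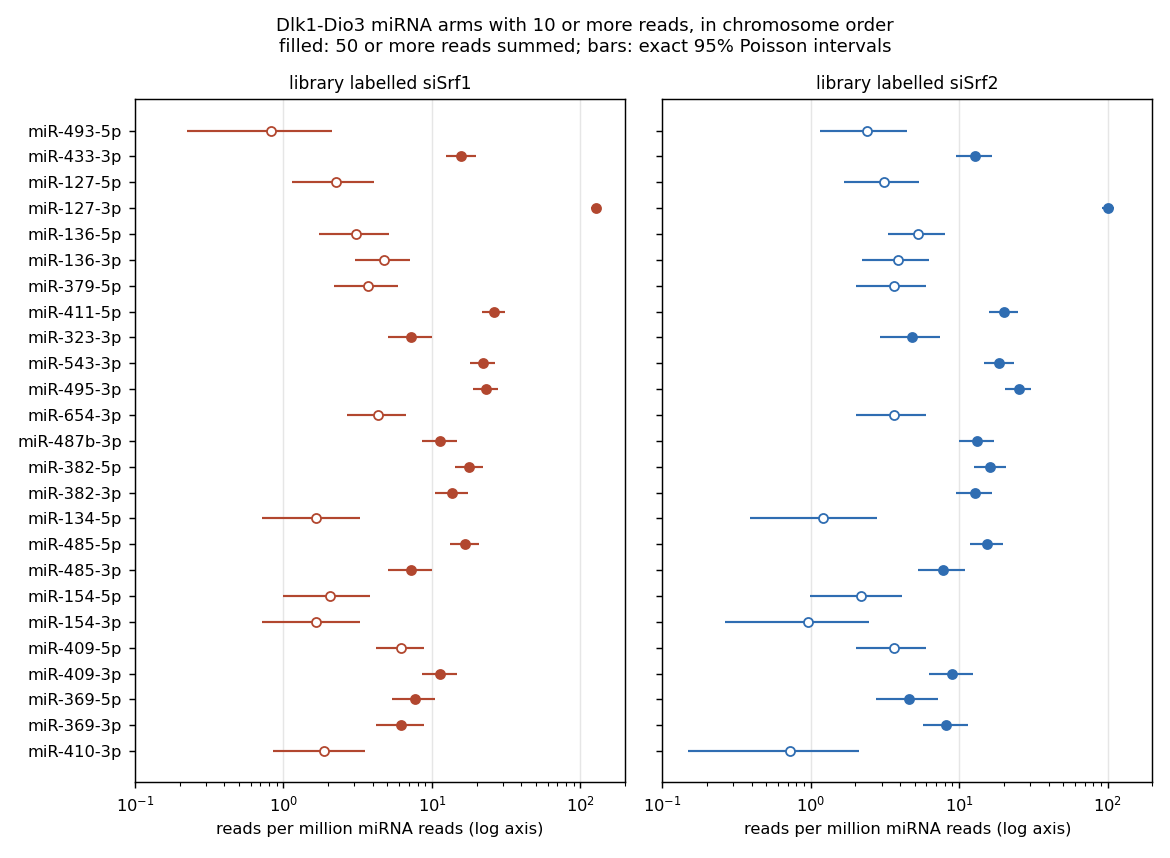
RPM (reads per 1000000 miRNA reads, log axis) of the 25 cluster arms with 10 or more reads summed, in chromosome order, with the siSrf1 library on the left and the siSrf2 library on the right; filled points have 50 or more reads and bars are exact 95% Poisson intervals. miR-127-3p stands highest in both, at 128 in the siSrf1 library and 100.2 in the siSrf2 library.

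None of the 14 measured arms was past the size rule, which asks for a difference of at least 2-fold with the whole interval on 1 side of 0. Over all 233 measured miRNAs, 0.429% were past it on the siSrf1 side and 25.3% on the siSrf2 side, or 25.8% in either direction. Log2 ratios of the 14 arms ran from -0.40 for miR-369-3p to 0.72 for miR-369-5p, with 10 above 0 and 4 below. Of all 233 measured miRNAs, 45 (19.3%) lay above 0 and 188 below. The median of the 14 arms was 0.19, beside -0.46 for all measured miRNAs. The interval lay wholly above 0 for 1 arm, miR-127-3p, beside 3.86% of all measured miRNAs, and wholly below 0 for none, beside 66.1%. That count depends on the scaling: it was 11 of 14 under TMM scaling, 7 under median-of-ratios scaling, 9 without miR-1a-3p in the total and 10 without inserts that match the genome at several places. The median of all miRNAs rose too, to 0.07, -0.16, -0.06 and -0.006 in the same order of settings. The 3.86% holds for the main scaling only, so these counts cannot be read against it, and the shares of all miRNAs in these settings are not given here. All 14 arms lay above the median of all miRNAs. With a minimum of 10 reads, 23 of 25 cluster arms lay above the median of the 346 miRNAs then measured. The gap between the medians, 0.66 for the 14 arms, does not depend on the total used for scaling. The direction of single arms does: with TMM factors all 14 lay above 0, and the median of all miRNAs moved by 0.53, to 0.07. Of the list of miRNAs of other imprinted loci, 7 were read, with a sum of 9.51 RPM in the siSrf1 library and 9.88 in the siSrf2 library. The 1 with 50 or more reads, miR-335-5p of the Mest locus, had 35 reads in the siSrf1 library and 28 in the siSrf2 library; its log2 ratio was 0.10 (-0.66 to 0.87). The part of the changed-form reads, which also lay above the median of all miRNAs, in these ratios was not tested.

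**Figure D4:**
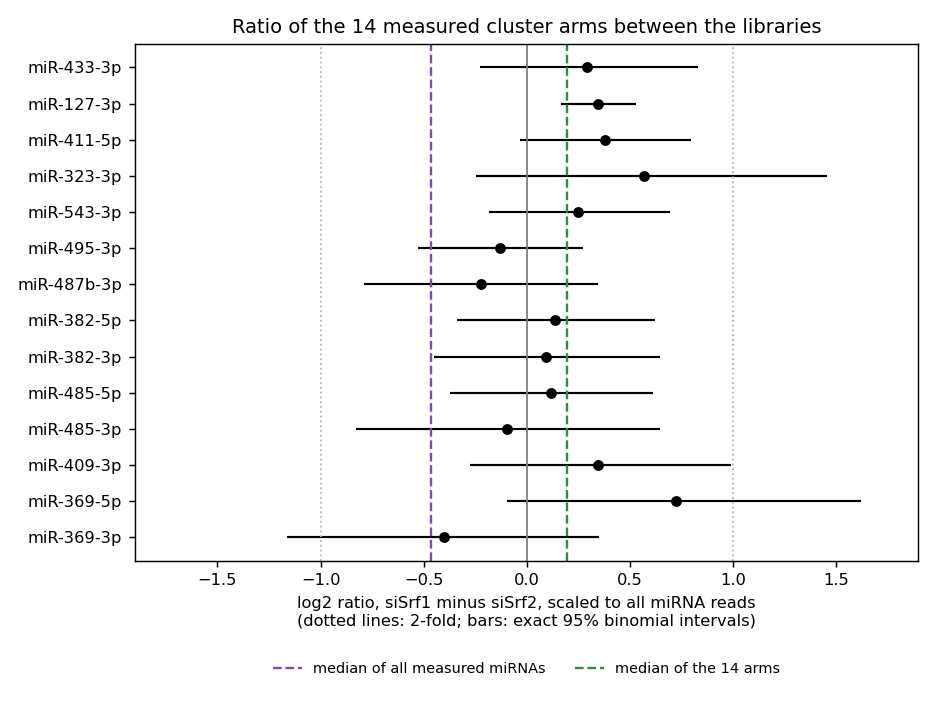
Log2 ratio (siSrf1 minus siSrf2, scaled to all miRNA reads) of the 14 measured arms in chromosome order, with exact 95% binomial intervals; dashed lines mark the median of all 233 measured miRNAs (-0.46) and of the 14 arms (0.19), dotted lines 2-fold. All 14 points lie to the right of the median of all miRNAs and inside the 2-fold lines.

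Arm choice differed widely between hairpins. The 5p arm took 97.7% of reads of Mir411 in the siSrf1 library and 97.6% in the siSrf2 library. For Mir127 it took 1.75% and 3.03%, in the same order. Mir382 was close to even, with 56.6% from the 5p arm in the siSrf1 library and 55.8% in the siSrf2 library. For Mir485 the 5p share was 69.8% in the siSrf1 library and 66.7% in the siSrf2 library. The widest gap among the measured arms was at Mir369, with 55.2% (42.6% to 67.4%) in the siSrf1 library and 35.8% (23.1% to 50.2%) in the siSrf2 library. Mir136 went the other way, with 39.5% (24.04% to 56.6%) in the siSrf1 library and 57.9% (40.8% to 73.7%) in the siSrf2 library. In all 10 hairpins with both arms read and at least 10 reads, the Clopper-Pearson intervals of the libraries overlapped. Many are wide, and such overlap neither shows that the shares are equal nor tells which gaps this depth could resolve.

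The 5′ end, which sets the seed, was compared with RefSeq for the 12 arms that have an entry. Over the sum of both libraries, the most frequent start was the RefSeq start in 8 and another in 4. The 4 arms are shown from their most frequent start as read from the RefSeq hairpin, with the seed that this start gives in capitals.
miR-411-5p: aUAGUAGAccguauagcguacg
miR-382-3p: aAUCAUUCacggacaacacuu
miR-323-3p: gCACAUUAcacggucgaccucu
miR-485-3p: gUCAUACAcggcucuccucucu
miR-382-3p started 2 nt before the RefSeq start in all 66 reads of the siSrf1 library and all 53 of the siSrf2 library. miR-411-5p started 1 nt before it in 59.5% of reads in the siSrf1 library and 59.0% in the siSrf2 library, so reads with either seed were common. miR-323-3p was split, with 19 reads 1 nt before the RefSeq start and 16 at it in the siSrf1 library, and 10 at each in the siSrf2 library. miR-485-3p started 1 nt after it in 80.0% of reads in the siSrf1 library and 90.6% in the siSrf2 library. miR-409-3p was also mixed, with 47.3% at the RefSeq start in the siSrf1 library and 54.1% in the siSrf2 library. miR-127-3p had a nearly fixed start, at 99.7% in the siSrf1 library and 99.5% in the siSrf2 library. For each of the 14 measured arms the interval of the share at the main start overlapped between libraries. Which of these reads have the same bases in human was not checked, so the starts cannot be assigned to mouse alone.

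**Figure D5:**
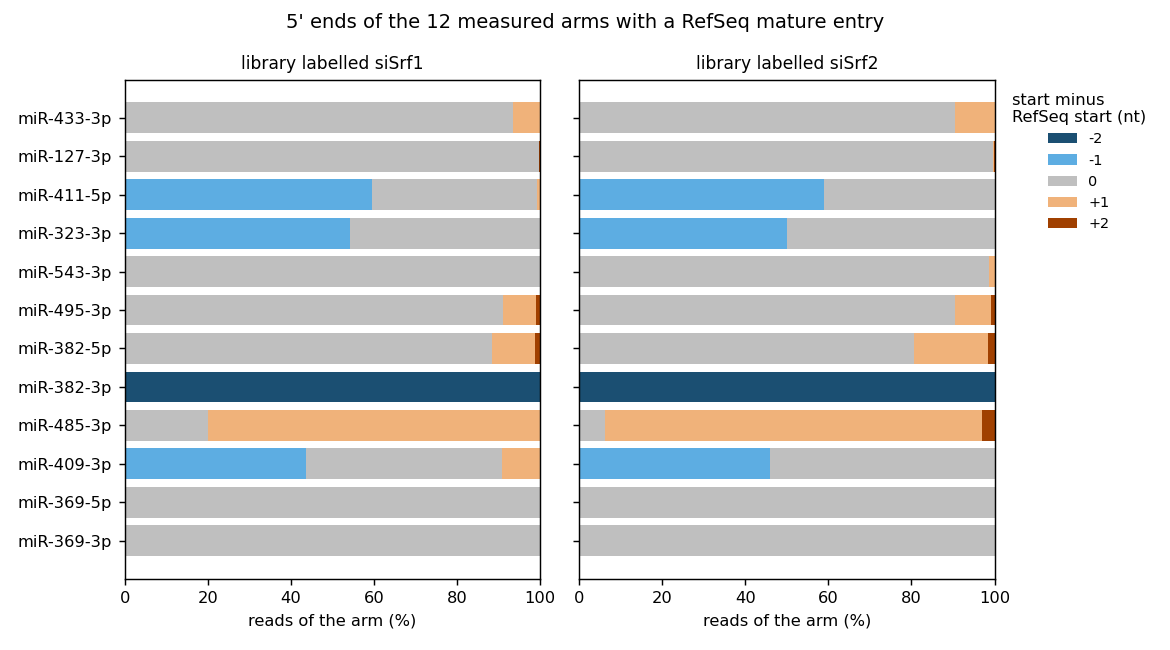
Percent of an arm's reads (x axis) by start position relative to the RefSeq start in nt (colours), for the 12 measured arms with a RefSeq mature entry, with the siSrf1 library on the left and the siSrf2 library on the right. miR-382-3p lies wholly at -2 and miR-411-5p is split between -1 and 0 in both libraries.

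Bases that the genome does not hold were common at the 3′ end of miR-127-3p. Of its reads at the main start, exact and tailed, 23.8% ended in 1 or 2 added A (21.1% to 26.7%) in the siSrf1 library and 27.6% (24.2% to 31.1%) in the siSrf2 library. Added T was found in 10.3% and 11.8% in that order, and added C or G in 0.63% and 0.29%. miR-433-3p had added A in 18.4% of reads in the siSrf1 library and 19.4% in the siSrf2 library, whereas miR-495-3p had it in 1.94% and 1.04%.

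Adenosines of this cluster are known targets of A-to-I editing, which is read as A-to-G. Of 7 cluster sites listed from the literature, 1 had the 50 reads asked for, position 5 of miR-411-5p. Among reads at the most frequent start, A5G was found in 5 of 80, 6.25% (2.06% to 13.99%), in the siSrf1 library. It was found in 2 of 51, 3.92% (0.48% to 13.5%), in the siSrf2 library. At that start it was the most frequent change in both libraries. T4G beside it had 4 reads in the siSrf1 library and 1 in the siSrf2 library, so the margin is 1 read in each. With starts within 2 nt, A5G had 5 and 3 reads in that order of libraries, and the most frequent other change had 6 and 3. At the known site of miR-376c-3p, A6G was present in 12 of the 31 reads with T16C in the siSrf1 library and 11 of 24 in the siSrf2 library. At that of miR-376a-3p, A6G was present in 19 of the 21 reads with G4A in the siSrf1 library and 13 of 19 in the siSrf2 library. These miR-376 reads are all of the changed form described above, so they say nothing of editing at the mouse reference form, which had no read.

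Among the 14 measured arms, 1 had a change away from the reference at 10% or more in both libraries. miR-323-3p was accompanied by 8 reads with A2C and T5A in the siSrf1 library and 8 in the siSrf2 library. That pair of bases is the one known in human miR-323b-3p, a related miRNA of the human cluster, as background recognised after the values were seen.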

How the data were processed

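The authors deposited raw read counts of distinct 36 nt sequences, 1 table per library, with the 3′ adapter still present; their aligner and build are not given in the sources used. An Illumina small RNA kit was used, per the labels. The adapter was located by its first 8 nt, or by 4 nt or more at a read's end, and exact matches of 18 to 25 nt inserts were sought in GENCODE vM1 and RefSeq miRNA hairpins placed on NCBIM37. An arm is set by its most frequent insert; reads starting within 2 nt and ending within 3 nt of it were counted, and inserts that matched several miRNAs were shared equally. miRNAs with no hairpin in these annotations are not in the total. Reads were scaled to all miRNA reads, and log2 ratios used a pseudocount of 0.5. Intervals are exact 95% intervals (Python 3.11.15, scipy 1.17.1, pandas 2.3.3, numpy 2.4.6). Reads carry no molecular identifiers, so they are not independent molecules. The size rule was tried on simulated Poisson counts with no spread between cultures, so that trial covers counting error only.

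Every cluster arm with at least 50 reads is named; others are given by counts, and those with at least 10 reads may be named. Members, lists and rules were chosen with earlier results of these data known. The arms with changed bases were picked after a scan of the reads for changes of 1 or 2 bases in the first 20 of inserts that match NCBIM37 nowhere, where the base is that of the human miRNA; this list is neither complete nor independent of the result. Alternatives used TMM factors (edgeR 4.0.16), median-of-ratios factors (DESeq2 1.42.0, R 4.3.3), other totals, insert lengths, adapter lengths and minimums.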

Additional observations from a re-analysis of the deposited data

How the results depend on the processing

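The log2 ratio of all cluster reads, 0.21, moved to 0.74 under TMM scaling, 0.52 under DESeq2's median-of-ratios scaling, 0.34 scaled to all inserts of 15 nt or longer, 0.62 without miR-1a-3p in the total and 0.68 without inserts that match the genome more than once. Scaled to the changed reads of 9 outside arms it was 0.055, and to their reference reads 1.16, both added after the data were seen. Arms past the size rule on the siSrf1 side numbered 0, but 2 under TMM scaling (3 of all 233 miRNAs) and 1 under median-of-ratios scaling (2 of 233). They numbered 1 without miR-1a-3p (2 of 233) and 2 without inserts of several matches (4 of 207). On the siSrf2 side 0 were past it in every alternative run. Over all miRNAs, that side held 59 of 233 in the main run and 31 of 233 under TMM scaling. It held 42 of 233 under median-of-ratios scaling, 39 of 233 without miR-1a-3p and 33 of 207 without inserts of several matches. The median of the measured arms, 0.19, was 0.73 with TMM factors, 0.66 without inserts of several matches, 0.60 without miR-1a-3p, 0.50 with median-of-ratios factors and 0.32 scaled to all inserts. The editing site of miR-411-5p, 1 of 1, became 0 with 12 nt of adapter and 0 with starts within 2 nt. The cluster ratio was above 0 in all of these, but scaled to the changed reads its interval, -0.05 to 0.16, includes 0. That interval leaves out the counting error of the changed reads themselves. A change of the scaling total or factor moves every log2 ratio by the same amount. By arithmetic this leaves the cluster ratio minus the median of all miRNAs unchanged. That difference was 0.676 in the main run and under TMM and median-of-ratios scaling. It was also 0.676 scaled to all inserts and without miR-1a-3p, and 0.681 without inserts of several matches. The shifts of the cluster ratio under another scaling are thus shared with the median of all miRNAs by arithmetic, which is no check of the difference. Why the totals differ between the libraries was not tested. No paired analysis was possible because there is 1 library per title. With 1 library per title, the spread between cultures is unknown, and most arms have too few reads to show a difference under 2-fold.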
